A study of Mus musculus with 23 samples.

Results

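The comparison was of gastrocnemius muscle of old male mice after moderate-intensity continuous training (MICT) with that of old sedentary mice. It took every array labelled as one of these groups, 8 of the 23 arrays of the series, and no measured value entered the choice. The 4 old MICT arrays were from C57BL/6J males that started at 24 months of age and were labelled 25 months at sampling. They had trained on a treadmill every day for 4 weeks, each session being 45 min of continuous running at 13 m/min. The 4 old sedentary arrays were from males of the same strain and age that were exposed to a treadmill kept off. All mice were housed singly and rested for 12 h before the muscle was taken, and 200 ng of RNA was labelled for each 1-colour Agilent array. The series also holds 4 old arrays after high-intensity intermittent training (HIIT, 3 runs of 2 min at 27 m/min), and 4 sedentary, 4 HIIT and 3 MICT arrays of adult mice of 6 months. The labels name 4 arrayed mice per group but do not say how they were drawn from the larger training groups. The gastrocnemius is a mixed calf muscle with mainly fast fibres, and RNA of the whole tissue holds all its cell types together. Fewer cells of a type and less RNA per cell cannot be told apart in such samples.

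Muscle between bouts of endurance work draws on fatty acids, and the kinase PDK4 slows the entry of glucose carbon into the mitochondria. Muscle protein is broken down by the ubiquitin and proteasome route, with the ligases encoded by Fbxo32 and Trim63, and by autophagy. FOXO transcription factors and glucocorticoids induce genes of both routes, while insulin and IGF1 restrain them. Old muscle is also known for infiltrating immune cells and for a slower turnover of its collagen matrix.

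Values are log2 signals minus the 75th percentile of the array, so 0 stands for that percentile, and a difference of 1 is a doubling. A number after ± is the standard error of that difference from limma unless it is called an SD, and each adjusted p is limma's with Benjamini-Hochberg adjustment over 23715 features and a threshold of 0.05. Of these features 7200 were called (30.4%), 5059 of them higher (21.3%) and 2141 lower (9.03%) in old MICT than in old sedentary muscle, and 15472 of the features had a gene symbol. The median difference over all features was 0.19. Called rises were mostly small, with a median of 0.63, whereas called falls had a median of -1.25. Groups did not overlap for 16.3% of features in the upward and 5.8% in the downward direction.

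The calls rest on a spread estimated from all 23 arrays and on a few arrays. Where adult arrays varied less, the standard errors can understate the spread of the 8 compared arrays. For Marco the SD was 2.94 in old sedentary and 0.24 in adult sedentary muscle, whereas for Birc5 it was 1.26 and 1.64. The 8 compared arrays alone gave no call by limma, although 8348 features had an unadjusted p under 0.05, and the lowest adjusted p was 0.0523. Old sedentary arrays 1 and 2 had high lymphocyte transcripts, and without them 403 features were called, 365 of them among the 7200. Old MICT arrays 1 and 2 resembled each other (r = 0.58 over features centred on the mean of all arrays) more than they resembled old MICT arrays 3 and 4 (r between 0.02 and 0.20), and without them 64 were called. With lymphocyte and neutrophil scores as covariates, 35 were called. Old MICT lay on slide 3 and old sedentary on slide 2, so slide and training cannot be told apart within this pair. An additive model of age, training and slide, which assumes the same training effect at both ages, called no feature, with 1551 at an unadjusted p under 0.05. "Rose" and "fell" below refer to the test on all 23 arrays.

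**Figure D1:**
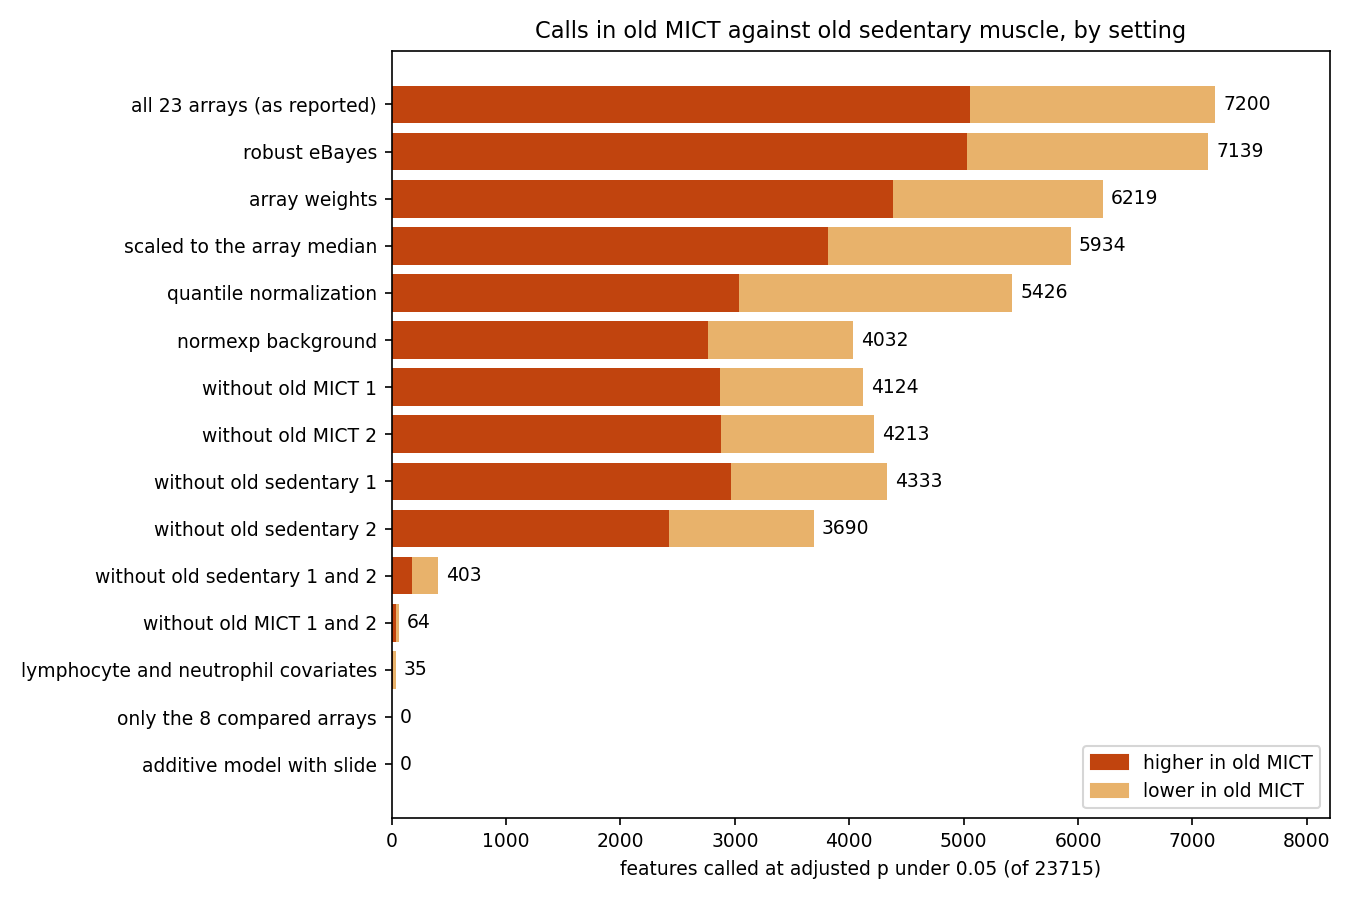
Number of features called at an adjusted p under 0.05 in old MICT against old sedentary muscle (x axis, of 23715 tested) under each setting (y axis), with features higher in old MICT in dark and lower ones in pale bars. The count was 7200 with all 23 arrays, 403 without old sedentary 1 and 2, 64 without old MICT 1 and 2, and 0 with the 8 compared arrays alone and in the additive model with slide.

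The tissue label was checked against its markers. All 10 myofibre markers were above background on each of the 8 arrays, and their summed signal was 5075 to 7541 times the array's 75th percentile in old MICT, against 3649 to 6646 times in old sedentary muscle. Of these 10 genes, 4 rose and none fell, with a median difference of 0.49. Transcripts of other cells were present too. The summed signal of 11 B and plasma cell markers was 2.46 to 3.71 in old MICT, against 4.17 to 78.8 in old sedentary muscle, and that of 15 T and NK cell markers was 9.07 to 11.2 in old MICT against 9.78 to 55.7 in old sedentary muscle. The summed signal of 13 neutrophil markers was 129 to 177 in old MICT against 101 to 337 in old sedentary muscle, where array 4 was the highest. Keratinocyte markers summed to 14.9 to 27.9 in old MICT and to 16.9 to 755 in old sedentary muscle. The part of these cells in the results below was not tested beyond the settings named.

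**Figure D2:**
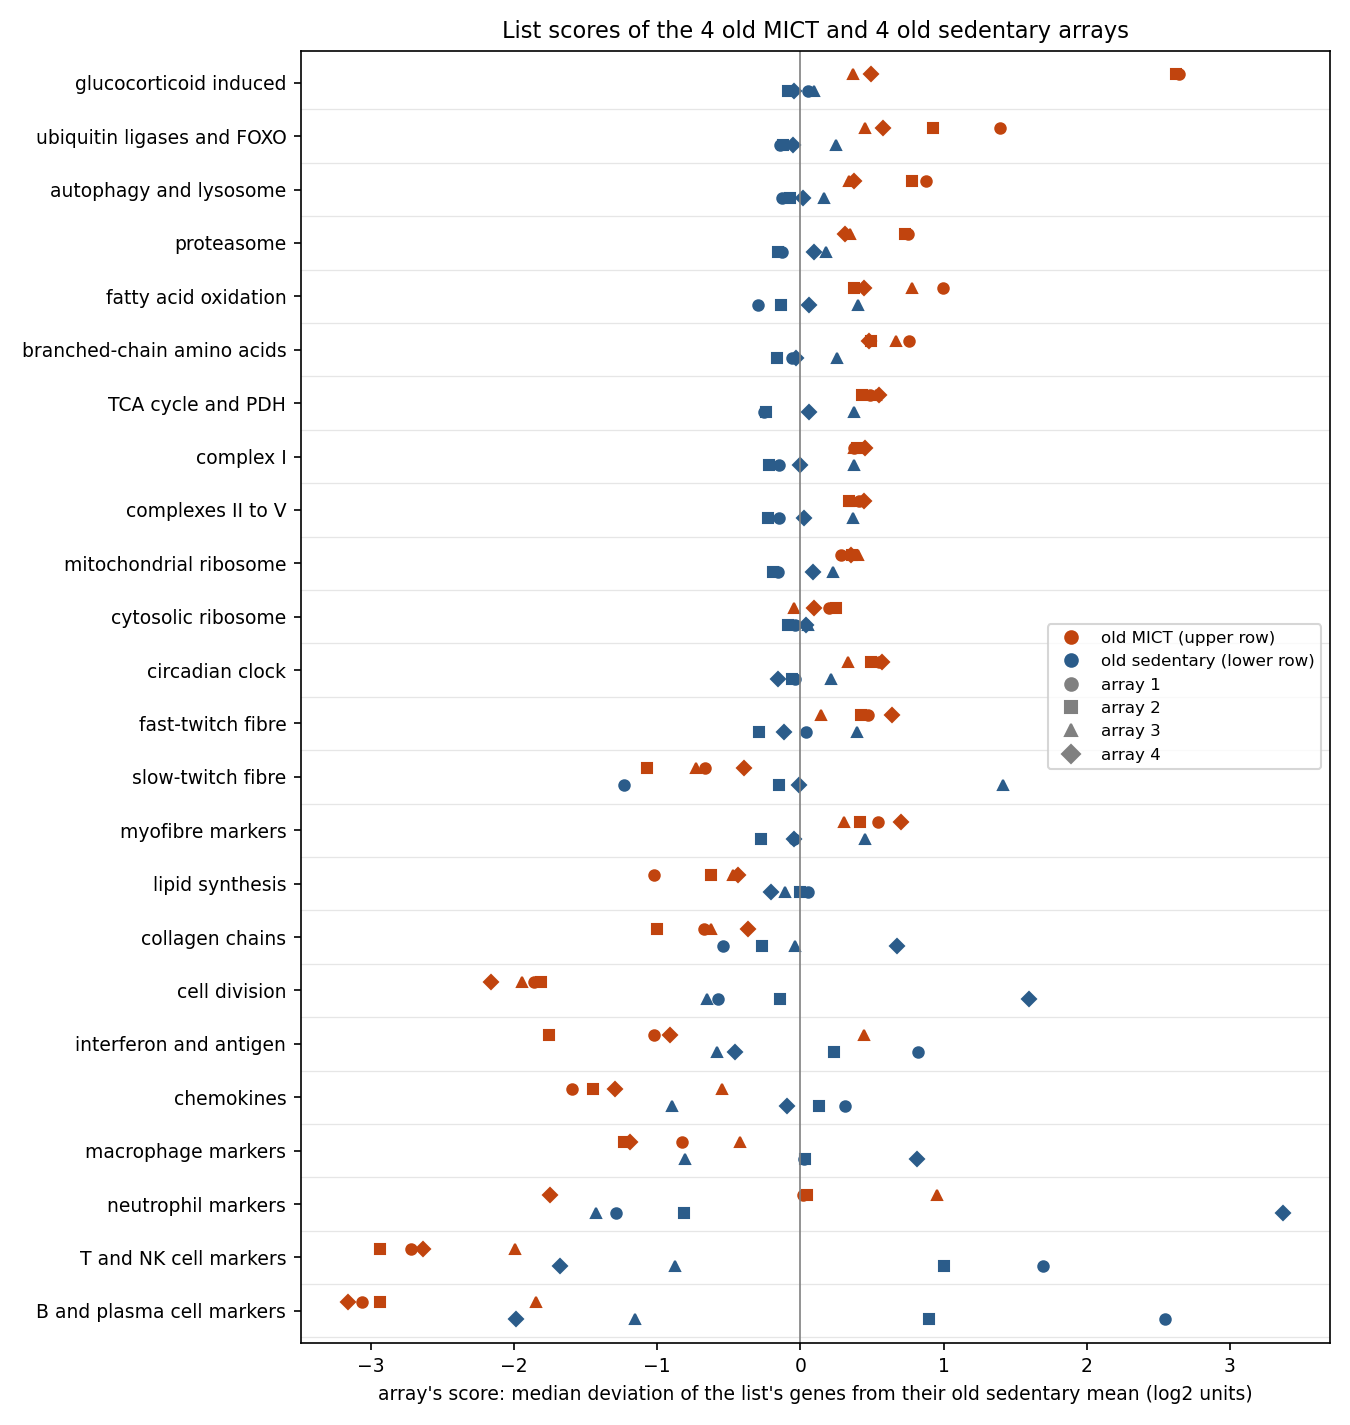
Score of each array for 24 gene lists (y axis), the median over the list's genes of the deviation from their old sedentary mean in log2 units (x axis), with old MICT in the upper and old sedentary in the lower row of each list and a symbol for each array number. For the glucocorticoid-induced list, old MICT 1 and 2 scored 2.64 and 2.62 and old MICT 3 and 4 scored 0.37 and 0.50, while for complex I the 4 old MICT arrays lay between 0.38 and 0.45.

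Genes induced by glucocorticoids and genes of ubiquitin-dependent protein breakdown were higher in old MICT muscle. Of 21 measured glucocorticoid-induced genes 16 rose and none fell, with a median difference of 1.56 against 0.19 for all features. Of 19 genes of muscle ubiquitin ligases and FOXO factors, 14 rose and none fell, with a median of 0.82. Fbxo32, which encodes the muscle ubiquitin ligase atrogin-1, was 7.56, 7.01, 5.11 and 4.71 on the old MICT arrays, against 3.0, 3.24, 3.39 and 2.93 on the old sedentary arrays. The groups did not overlap, and old MICT 1 and 2 were more than 1 log2 unit above old MICT 3 and 4. Fbxo32 rose by 2.96 ± 0.62 (7.77-fold, n = 4 and 4, limma adjusted p = 0.00494).

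Trim63 encodes MuRF1, the ligase that marks myosin and other thick-filament proteins for the proteasome. It was 9.65, 9.36, 6.45 and 6.91 on the old MICT arrays, against 4.84, 5.10, 5.72 and 5.40 on the old sedentary arrays, and rose by 2.83 ± 0.64 (adjusted p = 0.00613). All 4 old MICT arrays lay above all 4 old sedentary arrays. Foxo1, the transcription factor that drives both ligases, was 6.08, 6.08, 2.93 and 3.24 on the old MICT arrays, against 2.73, 2.58, 2.42 and 2.38 on the old sedentary arrays. It rose by 2.05 ± 0.52 (adjusted p = 0.00942), and old MICT 3 and 4 were close above the old sedentary range. Foxo3, its relative, differed by 1.32 ± 0.69 (adjusted p = 0.145) and was above background on only 2 old MICT and 0 old sedentary arrays.

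The promoter of Trim63 is shown because it is the only one of the 15 genes with the largest rises whose window held both a FOXO and a glucocorticoid receptor motif. The sequence is RefSeq's, build GRCm38.p6, chr4:134314870-134315169 on the plus strand, from 250 bases before to 50 bases after the annotated start. Capitals mark the reverse complements of AGAACA, a binding motif of the glucocorticoid receptor, and of GTAAACA, a FOXO site, which begin at -200 and -194 and abut without overlap.
Trim63 promoter: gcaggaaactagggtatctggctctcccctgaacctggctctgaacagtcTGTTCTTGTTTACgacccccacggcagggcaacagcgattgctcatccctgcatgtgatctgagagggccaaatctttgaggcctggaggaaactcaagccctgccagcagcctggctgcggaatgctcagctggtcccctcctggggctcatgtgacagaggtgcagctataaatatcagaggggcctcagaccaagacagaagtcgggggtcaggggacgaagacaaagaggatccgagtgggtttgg
Searched on both strands, GTAAACA was in 3.58% and AGAACA in 19.2% of the 27025 windows of the same length. Of the 15 genes with the largest rises 11 had a window, of which 1 held GTAAACA and 2 held AGAACA, and the counts were the same in the 11 windows of the largest falls. A match describes these letters and is not a site shown to be used.

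Ddit4, which encodes REDD1, an inhibitor of mTORC1 that glucocorticoids induce, was 8.81, 8.85, 4.00 and 5.20 on the old MICT arrays. On the old sedentary arrays it was 3.92, 3.82, 3.41 and 3.38. Old MICT 3 lay within 0.1 of the highest old sedentary array, and the rise was 3.09 ± 0.77 (adjusted p = 0.00902). Cebpd, a stress-induced transcription factor, was also highest on old MICT 1 and 2, with 9.30, 9.00, 4.93 and 5.90 in old MICT against 4.57, 4.33, 4.22 and 4.05 in old sedentary muscle, and rose by 2.99 ± 0.75 (adjusted p = 0.00926). Fkbp5, a co-chaperone of the glucocorticoid receptor and a standard readout of its activity, was 6.78, 6.74, 4.32 and 4.06 in old MICT against 3.46, 3.08, 3.54 and 3.30 in old sedentary muscle. It rose by 2.13 ± 0.56 (adjusted p = 0.0107), and again arrays 1 and 2 held the highest values. Klf15, which promotes amino acid breakdown, rose by 1.78 ± 0.37, Arrdc2 by 3.08 ± 0.73 and Cebpb by 1.65 ± 0.38. Depp1, a FOXO target, had the largest rise among genes with a symbol whose groups did not overlap. It was 7.21, 5.97, 1.54 and 3.46 in old MICT against 0.34, 0.74, 0.96 and 0.42 in old sedentary muscle (3.93 ± 0.89, adjusted p = 0.00599). Without old MICT 1 and 2, none of the 21 glucocorticoid-induced genes was called and their median was 0.50.

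**Figure D3:**
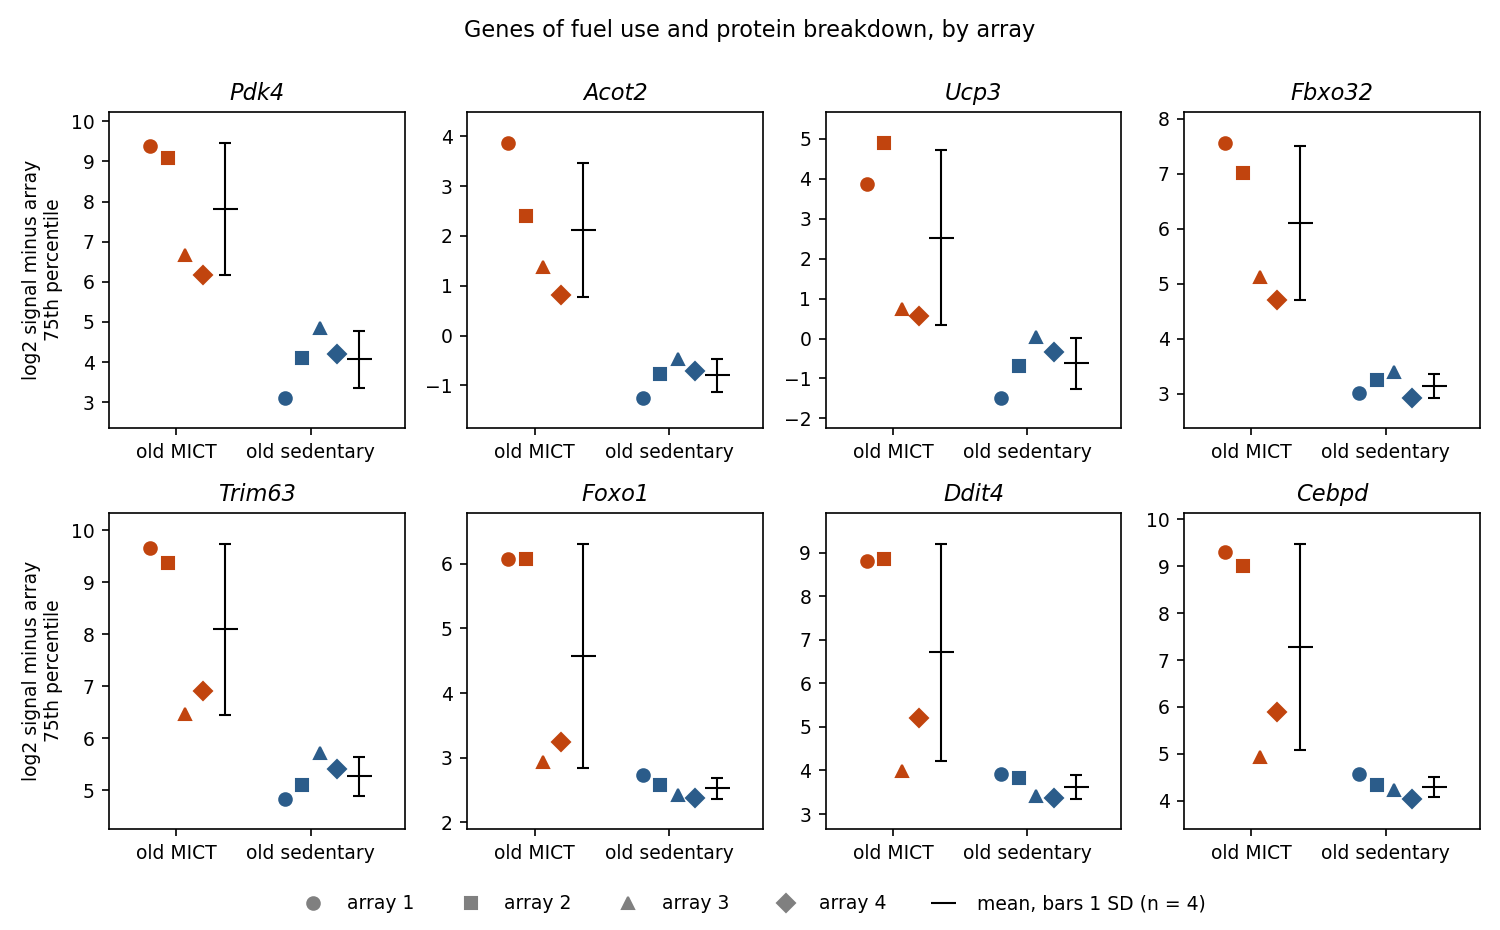
Log2 signal minus the array's 75th percentile (y axis) of 8 genes on the 4 old MICT arrays (left) and the 4 old sedentary arrays (right), with a symbol for each array number and the mean with 1 SD (n = 4). In each panel old MICT arrays 1 and 2 are the highest, and for Foxo1 old MICT 3 and 4, at 2.93 and 3.24, are close to the old sedentary arrays at 2.38 to 2.73.

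The proteasome and autophagy genes rose by less, with a narrower split between old MICT arrays than the glucocorticoid-induced genes. On the 4 old MICT arrays in order, the scores were 0.76, 0.73, 0.35 and 0.31 for the proteasome list. For the autophagy and lysosome list they were 0.88, 0.78, 0.34 and 0.37. Of 33 proteasome subunit genes 29 rose and none fell, with a median of 0.52. Psmd3, a lid subunit, was 7.03, 7.10, 6.61 and 6.61 in old MICT against 6.06, 6.04, 6.31 and 6.16 in old sedentary muscle, and rose by 0.70 ± 0.14 (adjusted p = 0.00373). Its groups did not overlap. Psmc6, one of the ATPases that unfold substrates, rose by 0.91 ± 0.18 and Psmd4, a ubiquitin receptor of the particle, by 0.70 ± 0.15. Ube2b, a ubiquitin-conjugating enzyme, rose by 0.84 ± 0.15, Fbxo21 by 1.11 ± 0.23 and Mul1, a mitochondrial ubiquitin ligase, by 0.62 ± 0.13. For 23 of the 33 proteasome genes all 4 old MICT arrays lay above all 4 old sedentary arrays, against 16.3% of all features.

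Of 35 autophagy and lysosome genes 23 rose and none fell, with a median of 0.70. Sqstm1, which encodes the cargo receptor p62, was 4.95, 4.50, 3.72 and 3.97 in old MICT against 2.91, 2.97, 3.39 and 2.90 in old sedentary muscle (1.24 ± 0.25, adjusted p = 0.00386). Bnip3, a receptor for mitochondria that are to be removed, was 9.23, 8.53, 7.93 and 7.73 in old MICT against 7.08, 6.95, 7.63 and 6.89 in old sedentary muscle (1.22 ± 0.26). Neither gene's groups overlapped. Atg14, a subunit of the lipid kinase that starts autophagosomes, rose by 0.81 ± 0.18 and Gaa, the lysosomal glucosidase that digests glycogen, by 0.72 ± 0.15. No proteasome and no autophagy gene was called without old sedentary 1 and 2, with medians of 0.39 and 0.54.

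Many genes of fatty acid use were higher too. Of 32 genes of fatty acid uptake, activation and oxidation, 23 rose and 1, Plin2, which coats lipid droplets, fell, with a median of 0.65. Of 12 further genes that fatty acids induce or that switch fuel use, 5 rose and none fell, and 4 differences were negative, down to -0.88 for Ucp2, an inner-membrane relative of Ucp3 (adjusted p = 0.0776). The genes of this second list with the largest rises were Pdk4, Ucp3 and Acot2. Pdk4 was 9.38, 9.08, 6.66 and 6.16 in old MICT against 3.11, 4.10, 4.84 and 4.21 in old sedentary muscle. All old MICT arrays were above all old sedentary arrays, and Pdk4 rose by 3.76 ± 0.76 (adjusted p = 0.00407). Old sedentary muscle averaged 4.06 ± 0.71 and adult sedentary muscle 6.03 ± 0.64 for Pdk4 (SD, n = 4 each), a difference that did not pass the test (limma adjusted p = 0.0835). Acot2, a mitochondrial thioesterase, was 3.87, 2.41, 1.38 and 0.81 in old MICT against -1.25, -0.78, -0.47 and -0.71 in old sedentary muscle (2.92 ± 0.56, adjusted p = 0.00364). Ucp3, an inner-membrane protein of muscle mitochondria, was 3.87, 4.90, 0.74 and 0.57 in old MICT against -1.48, -0.70, 0.04 and -0.35 in old sedentary muscle (3.14 ± 0.76, adjusted p = 0.00778). Its second tested probe was not called.

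Among the enzymes themselves the rises were smaller. Cpt1b, which commits fatty acids to oxidation in muscle, was 5.58, 5.29, 5.49 and 5.38 in old MICT against 4.54, 4.64, 5.24 and 4.91 in old sedentary muscle (0.60 ± 0.17, adjusted p = 0.0151). The groups did not overlap, and old sedentary 3 came nearest to old MICT. Mlycd, which removes the malonyl-CoA that blocks CPT1, rose by 1.44 ± 0.31, Pnpla2, the first lipase of stored fat, by 1.27 ± 0.30, and Plin5, which ties lipid droplets to mitochondria, by 2.12 ± 0.56. Eci2, an isomerase of the oxidation of unsaturated fatty acids, rose by 0.93 ± 0.21. Cd36, a fatty acid transporter, differed by 0.38 ± 0.25 (adjusted p = 0.232). When old MICT 1, old sedentary 1 or old sedentary 2 was left out, 5 of the 32 genes rose, and when both of these sedentary arrays were, none did.

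Genes of branched-chain amino acid breakdown formed one of the most even groups. Of 19 genes 15 rose, none fell and all 19 differences were positive, with a median of 0.61. For 13 of the 19 all old MICT arrays lay above all old sedentary arrays, against 16.3% of all features. The share of all features called higher was 21.3%. Aldh6a1, the last enzyme of valine breakdown, was 6.08, 5.85, 5.89 and 5.71 in old MICT against 5.25, 4.99, 5.38 and 5.01 in old sedentary muscle. It rose by 0.72 ± 0.13 (adjusted p = 0.00298), and all old MICT arrays were the higher ones. Acadsb, which oxidises the isoleucine product, was 3.82, 3.43, 3.52 and 3.44 in old MICT against 2.69, 2.69, 3.02 and 2.65 in old sedentary muscle (0.79 ± 0.14, adjusted p = 0.00283). Without old sedentary 1 and 2 these were the only 2 of the 19 genes called, at 0.68 (adjusted p = 0.0402) and 0.72 (adjusted p = 0.0442). Pcca, a subunit of propionyl-CoA carboxylase, rose by 0.72 ± 0.16 and Hibadh, another enzyme of valine breakdown, by 0.68 ± 0.14.

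Many mitochondrial energy genes rose by small amounts, and the counts depended on single arrays. Of 20 tricarboxylic acid cycle and pyruvate dehydrogenase genes 13 rose and none fell (median 0.48), of 36 complex I genes 28 rose and none fell (median 0.39), and of 42 genes of complexes II to V 21 rose and 1 fell (median 0.39). Without old sedentary 2 the rises were 5, 10 and 2 in these 3 lists, and without old sedentary 3 they were 18, 33 and 39. Pdha1, the catalytic E1 subunit of pyruvate dehydrogenase, was 5.85, 5.68, 5.93 and 5.76 in old MICT against 4.94, 5.03, 5.69 and 5.24 in old sedentary muscle (0.58 ± 0.13, adjusted p = 0.0066). Old MICT 2 and old sedentary 3 lay within 0.01 of each other, with no gap between the groups. Ndufs1, the largest subunit of complex I, was 7.64, 7.56, 7.76 and 7.81 in old MICT against 6.93, 7.0, 7.43 and 7.35 in old sedentary muscle (0.52 ± 0.12, adjusted p = 0.00699). Here too old sedentary 3 was the highest of its group. Uqcrfs1, the iron-sulfur protein of complex III, rose by 0.59 ± 0.15 and Atp5j, a subunit of ATP synthase, by 0.41 ± 0.12, while Cox6a1, the non-muscle form of a complex IV subunit, fell by 0.49.

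For complex I the score of old sedentary 3 was 0.38, inside the old MICT range, whereas old sedentary 1, 2 and 4 scored -0.15, -0.22 and 0.00. Old sedentary 1 and 2 were the arrays with the highest B cell scores (2.54 and 0.90) and old sedentary 4 had the highest neutrophil score (3.37). Without old sedentary 1 and 2 the complex I median was 0.23, no complex I gene was called, and the median of all features was 0.12. With quantile normalization, which moved the median of all features to 0.06, 1 complex I gene rose. The part of these cells in the mitochondrial differences was not tested further.

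Of 77 genes of the mitochondrial ribosome 47 rose and none fell (median 0.35), and of 76 genes of the cytosolic ribosome 4 rose and none fell (median 0.13, below the 0.19 of all features). Without old sedentary 2, 19 mitochondrial ribosome genes rose, and without old sedentary 3, 57 did. With quantile normalization 8 mitochondrial ribosome genes rose and 12 cytosolic ribosome genes fell. Mrpl50, a protein of the large mitochondrial subunit, was 4.61, 4.75, 4.34 and 4.24 in old MICT against 3.71, 3.64, 4.03 and 3.82 in old sedentary muscle (0.69 ± 0.13, adjusted p = 0.00364). Its groups did not overlap. Tfb2m, a mitochondrial transcription factor, rose by 0.69 ± 0.15, and 13 of 27 genes of mitochondrial biogenesis rose with none falling. Ppargc1a, the coactivator that exercise induces, was 2.48, 2.51, 3.50 and 3.34 in old MICT against 2.86, 2.70, 3.32 and 2.87 in old sedentary muscle. Old MICT 1 and 2 held its lowest values and old MICT 3 and 4 its highest, with a difference of 0.02 ± 0.20 (adjusted p = 0.945).

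Of 39 mitochondrial carrier genes of the SLC25 family 15 rose and 4 fell, against 21.3% and 9.03% of all features. The share of falls was thus near that of all features. Without old sedentary 2 the rises were 6, when 2420 of the 23715 features were called higher. Slc25a34, a carrier of unsettled substrate, was 5.22, 3.07, 3.69 and 2.42 in old MICT against -0.76, 0.52, 2.14 and 1.97 in old sedentary muscle (2.63 ± 0.68, adjusted p = 0.0101). Slc25a33, a pyrimidine nucleotide carrier, rose by 0.84 ± 0.16 and Slc25a44, which carries branched-chain amino acids, by 0.72 ± 0.16. The falls were Slc25a1, the citrate carrier that feeds lipid synthesis (-1.64), Slc25a10, a dicarboxylate carrier (-1.71), Slc25a24 (-0.99) and Slc25a45 (-0.79). The 4 were chosen after their values were seen.

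Some genes of contraction and glucose use rose, and none of these lists had a fall. Of 17 fast-fibre genes 6 rose and none fell (median 0.36), of 23 genes of excitation-contraction coupling 9 rose and none fell (median 0.42), and of 31 genes of glycolysis and glycogen 12 rose and none fell (median 0.44), against 21.3% of all features called higher. The 3 counts were 3, 2 and 2 without old sedentary 2, and 7, 15 and 16 without old sedentary 3, when 1 glycolysis gene was also called lower. Mylk2, the kinase of the fast myosin light chain, was 7.63, 7.07, 6.98 and 7.29 in old MICT against 5.99, 6.15, 6.52 and 6.34 in old sedentary muscle (0.99 ± 0.25, adjusted p = 0.00895). Cacna1s, the voltage sensor of the T-tubule, rose by 0.55 ± 0.14 and Slc2a4, the glucose transporter GLUT4, by 0.42 ± 0.13. None of 15 slow-fibre genes was called, although 11 of their differences were negative (median -0.61), and their scores overlapped, at -1.07 to -0.39 in old MICT and -1.23 to 1.42 in old sedentary muscle. The myosin heavy chain genes were not called either. Myh7, the slow form, was 6.90, 6.49, 3.38 and 7.15 in old MICT against 6.64, 7.41, 9.22 and 6.99 in old sedentary muscle (-1.58 ± 0.87, adjusted p = 0.162), with old MICT 3 and old sedentary 3 at the extremes. Differences were 0.27 ± 0.39 for Myh2, 0.36 ± 0.35 for Myh1 and 0.20 ± 0.24 for Myh4, and the sign of all 3 turned without old sedentary 1 and 2 (-0.41, -0.37 and -0.02).

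Among growth regulators, Mstn, which encodes myostatin, was 5.34, 4.83, 3.23 and 3.85 in old MICT against 3.1, 2.64, 3.16 and 2.80 in old sedentary muscle (1.39 ± 0.44, adjusted p = 0.0247). Of 21 genes of mTORC1 and its regulators 9 rose and none fell, against 21.3% of all features called higher. Among the rises were Mtor (0.70 ± 0.13), its activator Rheb (0.64 ± 0.16) and Eif4ebp1, a repressor of translation that mTORC1 inactivates (1.34 ± 0.35). Insr, the insulin receptor gene, rose by 0.81 ± 0.17 and Akt2 by 0.56 ± 0.15. Igf1 was 2.97, 3.34, 1.27 and 1.71 in old MICT against 2.20, 1.82, 1.94 and 1.81 in old sedentary muscle, so that old MICT 3 and 4 lay below all old sedentary arrays and old MICT 1 and 2 above them (0.38 ± 0.35, adjusted p = 0.409). Cdkn1a, which encodes the cell cycle inhibitor p21, was 5.30, 5.21, 1.99 and 2.08 in old MICT against 1.76, 1.85, 1.65 and 3.33 in old sedentary muscle (1.5 ± 0.66, adjusted p = 0.0865). Of 24 genes of myogenic regulation and denervation 5 rose and 1 fell, a share of rises near the 21.3% of all features, with a median of 0.09 and 10 negative differences. The rises included Gadd45a, a denervation and stress gene (1.83 ± 0.45), and Musk, the kinase of the neuromuscular junction (1.59 ± 0.41).

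Of 21 clock genes 10 rose and none fell, against 21.3% of all features called higher. Per1, a repressor of the clock that glucocorticoids also induce, was 6.05, 6.05, 4.22 and 4.42 in old MICT against 3.30, 3.49, 3.57 and 3.43 in old sedentary muscle (1.74 ± 0.36, adjusted p = 0.00477). Arntl, which encodes the clock activator BMAL1, was 3.75, 3.87, 1.82 and 1.89 in old MICT against 1.00, 1.18, 1.43 and 1.12 in old sedentary muscle (1.65 ± 0.40, adjusted p = 0.00796). Neither overlapped. Dbp, an output gene of the clock, was 3.75, 4.43, 6.24 and 7.01 in old MICT against 6.33, 6.10, 6.60 and 5.86 in old sedentary muscle (-0.86 ± 0.52, adjusted p = 0.198). On old MICT 1 and 2 it was below every old sedentary array, and on old MICT 3 and 4 it was not. Of 32 immediate early genes 6 rose and 1 fell, a share near that of all features (1 rose without old MICT 1 or without old MICT 2), and Fos differed by -0.63 ± 0.43 (adjusted p = 0.255).

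Of 26 genes of the amino acid response 6 rose and 2 fell, shares near the 21.3% and 9.03% of all features, with a median of 0.05. Chac1, which degrades glutathione and is a target of the transcription factor ATF4, was 8.09, 8.02, 6.30 and 5.01 in old MICT against 4.37, 2.73, 4.51 and 3.46 in old sedentary muscle (3.09 ± 0.71, adjusted p = 0.00641). Atf4 was 8.93, 8.85, 7.79 and 7.86 in old MICT against 7.41, 7.02, 7.48 and 7.25 in old sedentary muscle (1.07 ± 0.27, adjusted p = 0.0089). All old MICT arrays were the higher ones for both. The serine synthesis genes Phgdh and Psat1, also targets of ATF4, fell. Phgdh was -0.84, 0.24, -0.36 and 0.06 in old MICT against 2.03, 1.80, 0.79 and 1.74 in old sedentary muscle (-1.82 ± 0.37, adjusted p = 0.00425). Psat1 fell by 1.90 ± 0.46 (adjusted p = 0.00811), with 1 of its 2 tested probes called. Asns, another such target, differed by -0.53 ± 0.38 (adjusted p = 0.281).

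The promoter of Chac1 is shown because, of the 11 windows of the genes with the largest rises, it alone held the letters TGATGNAA searched for ATF4, which 2 of the 11 windows of the largest falls also held. It is RefSeq's, build GRCm38.p6, chr2:119350992-119351291 on the plus strand, with the match, a reverse complement beginning at -193, in capitals.
Chac1 promoter: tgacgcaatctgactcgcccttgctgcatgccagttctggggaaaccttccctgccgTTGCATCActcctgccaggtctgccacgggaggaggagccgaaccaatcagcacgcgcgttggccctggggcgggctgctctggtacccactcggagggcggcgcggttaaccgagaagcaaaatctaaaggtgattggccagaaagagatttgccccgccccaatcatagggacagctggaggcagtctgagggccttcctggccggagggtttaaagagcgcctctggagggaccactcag
TGATGNAA was in 4.07% of all windows on either strand, and this match too is a description only.

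Of 30 genes of protein folding in the endoplasmic reticulum 6 rose, near the share of all features, and 5 fell. Herpud1, of the disposal route, rose by 1.13 ± 0.22 (adjusted p = 0.00373) and Ppp1r15a, which restores translation, by 1.58 ± 0.41, while Pdia4, a disulfide isomerase, fell by 0.95 ± 0.26. Of 27 heat shock genes 9 rose, against 21.3% of all features, led by Bag3, a co-chaperone of stressed muscle (0.86 ± 0.19). Of 35 antioxidant genes 14 rose and 3 fell, against 21.3% and 9.03% of all features, so the share of falls was near that of all features. Keap1, the brake on NRF2, rose by 0.67 ± 0.15, Txnrd2, a mitochondrial thioredoxin reductase, by 0.61 ± 0.13, and Cat, catalase, by 0.66 ± 0.22. Hspb1, a small heat shock protein, was 9.42, 9.38, 8.19 and 8.20 in old MICT against 7.47, 8.06, 8.39 and 8.64 in old sedentary muscle (0.66 ± 0.34, adjusted p = 0.134). With quantile normalization, 3 heat shock genes rose, and 3 antioxidant genes rose and 3 fell. Without old sedentary 2, 4 heat shock and 7 antioxidant genes rose.

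The largest falls were of lymphocyte genes, and old sedentary 1 and 2 carried most of their signal. Of 11 B and plasma cell markers 7 fell and none rose (median -2.69), and of 15 T and NK cell markers 9 fell and none rose (median -2.63). Fcmr, the receptor for IgM, was -5.87, -5.00, -3.53 and -4.88 in old MICT against 3.46, 2.24, -0.20 and -2.43 in old sedentary muscle. It fell by 5.58 ± 0.96 (adjusted p = 0.0027), the groups did not overlap, and 1 old MICT array was above background. Cd79b, a signalling chain of the B cell receptor, was -2.73, -2.77, -1.54 and -1.88 in old MICT against 4.32, 3.04, 0.63 and 0.24 in old sedentary muscle (-4.29 ± 0.75, adjusted p = 0.00283). Ltb, the lymphotoxin of lymphoid tissue, was -2.57, -2.57, -1.47 and -1.96 in old MICT against 4.57, 3.48, 0.85 and -0.30 in old sedentary muscle (-4.29 ± 0.81). In both genes every old MICT array was lower, and old sedentary 1 and 2 stood highest.

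Several of these genes had only a bound in old MICT because no array there was well above background. For such a fold, a dim array counted no lower than the weakest signal it had well above background. Spib, a transcription factor of B cells, was at least 29.8-fold lower (adjusted p = 0.00174), Ccr6, a chemokine receptor of lymphocytes, at least 27.3-fold (adjusted p = 0.00398) and Cd3g, a chain of the T cell receptor complex, at least 16.9-fold (adjusted p = 0.00477). Marco, a scavenger receptor of macrophages in lymphoid organs, was -2.33, -1.91, -3.31 and -3.20 in old MICT against 4.98, 4.52, 1.62 and -1.37 in old sedentary muscle (-5.12 ± 0.99, adjusted p = 0.00371). Glycam1, made by the high endothelial vessels of lymph nodes, was above background on 0 old MICT and 3 old sedentary arrays and was at least 9.07-fold lower (adjusted p = 0.0115). Of 4 measured markers of lymph node stroma, Glycam1 included, 2 fell and none rose, and 1 difference was positive, at 1.25. Their summed signal overlapped, at 1.65 to 18.1 in old MICT against 1.05 to 14.8 in old sedentary muscle. Without old sedentary 1 and 2, 1 B and plasma cell marker and 1 T and NK cell marker were still called, with medians of -0.98 and -1.16. With the lymphocyte and neutrophil covariates, which are built from these lists, neither list had a call.

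Gzmb, the granzyme of cytotoxic T and NK cells, did not follow old sedentary 1 and 2. It was -5.66, -6.05, -4.71 and -5.87 in old MICT against -2.51, -2.95, -1.54 and -1.71 in old sedentary muscle. It fell by 3.40 ± 0.49 (adjusted p = 0.00129), at least 7.09-fold, and was above background on 0 old MICT arrays and 4 old sedentary arrays. Its difference was -3.95 without old sedentary 1 and 2 (adjusted p = 0.00632) and -3.11 without old MICT 1 and 2 (adjusted p = 0.0431). In the additive model with slide it was 0.02.

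**Figure D4:**
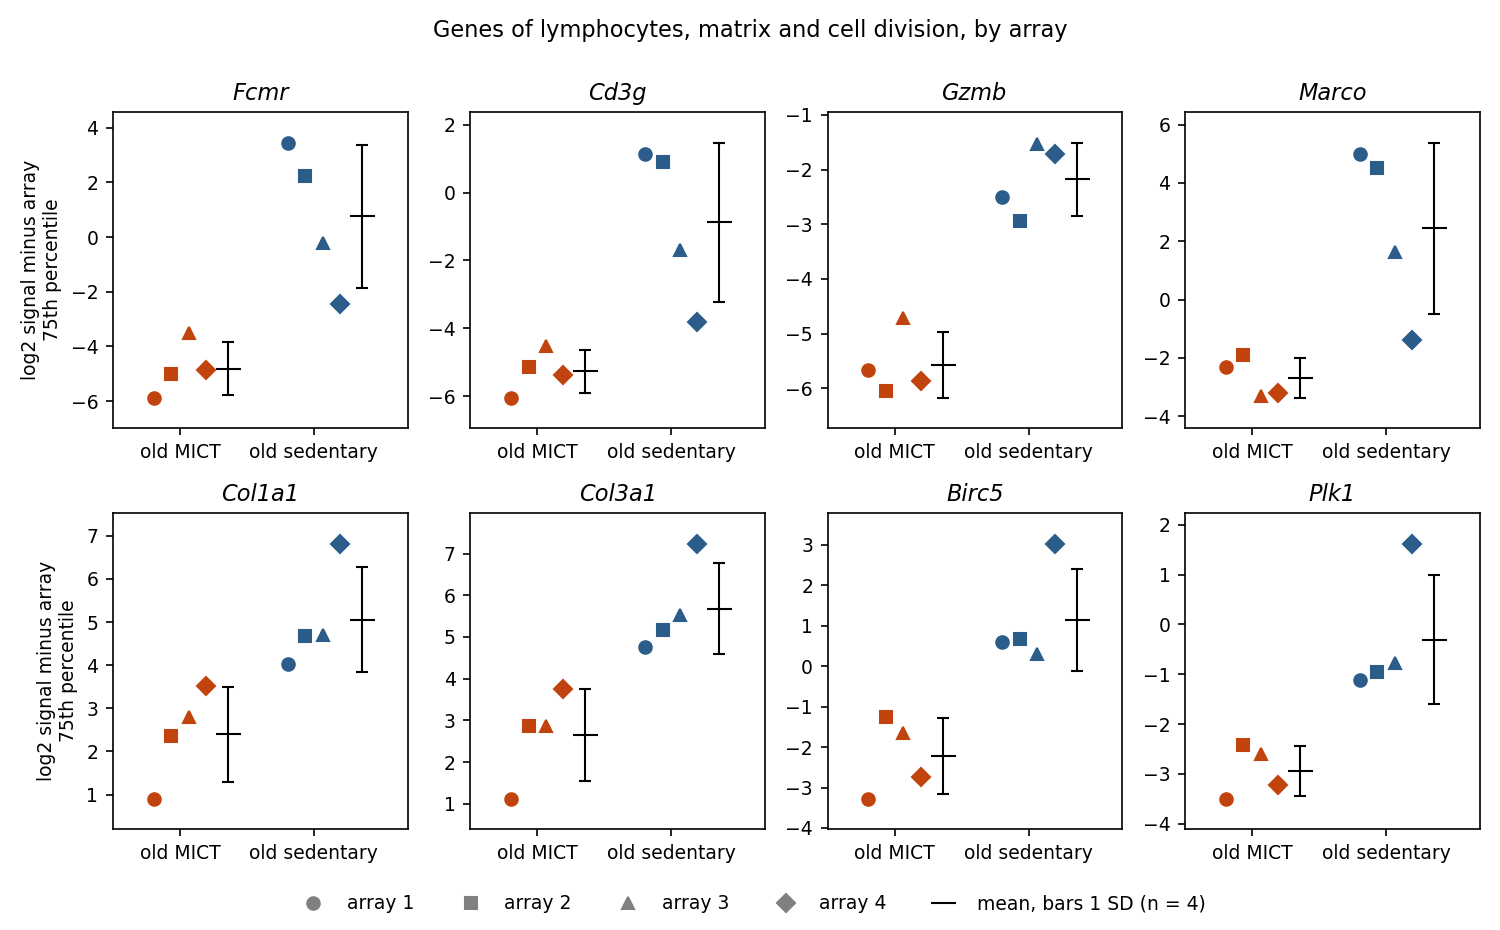
Log2 signal minus the array's 75th percentile (y axis) of 8 genes on the 4 old MICT arrays (left) and the 4 old sedentary arrays (right), with a symbol for each array number and the mean with 1 SD (n = 4). Old sedentary 1 and 2 are the highest for Fcmr, Cd3g and Marco, old sedentary 4 is the highest for Col1a1, Col3a1, Birc5 and Plk1, and Gzmb lies between -2.95 and -1.54 on all 4 old sedentary arrays.

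Other immune genes were lower too. Of 11 macrophage markers 6 fell and none rose (median -0.97), and 2 fell without old MICT 2 or without old sedentary 4. Aif1, a calcium-binding protein of macrophages, was 0.16, -0.99, 2.32 and 1.17 in old MICT against 3.77, 3.15, 1.88 and 3.24 in old sedentary muscle (-2.35 ± 0.54, adjusted p = 0.00656), where old MICT 3 and old sedentary 3 overlapped. Csf1r, the receptor that macrophages need to survive, fell by 0.97 ± 0.24. Of 7 mast cell markers 3 fell, among them the chymase gene Mcpt4, at 1.40, 1.88, 2.34 and 2.93 in old MICT against 4.85, 4.76, 2.87 and 1.85 in old sedentary muscle (-1.44 ± 0.49, adjusted p = 0.0326). The groups overlapped, and without old sedentary 1 and 2 the difference was -0.22. No neutrophil marker was called.

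Of 38 chemokine and chemokine receptor genes 16 fell and 2 rose (median -1.20). Cxcr5 and Ccr7, which place lymphocytes in lymphoid tissue, both fell. Cxcr5 was above background on 0 old MICT and 3 old sedentary arrays and was at least 10.5-fold lower, and Ccr7 fell by 3.43 ± 0.70. Cxcl16, a chemokine of macrophages, was -1.64, -2.20, -0.21 and -1.42 in old MICT against 0.44, 0.80, -0.51 and 1.22 in old sedentary muscle (-1.86 ± 0.37, adjusted p = 0.00398). The ranges overlapped at old MICT 3 and old sedentary 3. Of 38 genes of interferon response and antigen presentation 8 fell and none rose (median -0.80), and for none of the 38 did the groups separate. Without old MICT 1, old MICT 2 or old sedentary 1 only 1 interferon gene fell, and without old MICT 3, 31 did. Oas1a, an antiviral enzyme, was -0.61, -0.75, 1.39 and 0.12 in old MICT against 2.81, 2.08, 0.65 and 1.22 in old sedentary muscle (-1.65 ± 0.46, adjusted p = 0.0147). No chemokine and no interferon gene was called without old sedentary 1 and 2.

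Genes of cell division fell as a large group. Of 39 measured 25 fell and none rose (median -1.79), and for 22 the groups did not overlap, against 5.8% of all features in this direction. Birc5, which encodes survivin, a protein of dividing chromosomes, was -3.27, -1.26, -1.65 and -2.73 in old MICT against 0.59, 0.67, 0.31 and 3.03 in old sedentary muscle (-3.38 ± 0.69, adjusted p = 0.00438). Plk1, a kinase of mitosis, was -3.50, -2.43, -2.60 and -3.22 in old MICT against -1.11, -0.95, -0.78 and 1.62 in old sedentary muscle (-2.63 ± 0.52, adjusted p = 0.00392). Old sedentary 4 stood above the rest for both. Top2a, the topoisomerase that untangles chromosomes, was above background on 0 old MICT and 3 old sedentary arrays and was at least 7.05-fold lower (adjusted p = 0.00364). Without old sedentary 1 and 2 the count was 14 of 39 (median -2.12), and without old sedentary 4 and old HIIT 1 it was 21, with 1 gene higher (median -1.26). Plk1 was the only gene named here that was called with the lymphocyte and neutrophil covariates (-3.12, adjusted p = 0.0278).

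Collagen genes were lower as well. Of 36 measured collagen chain genes 13 fell and 2 rose (median -0.45), the falls including the fibrillar and type VI chains. Col3a1, of reticular fibres, was 1.13, 2.86, 2.86 and 3.75 in old MICT against 4.76, 5.16, 5.53 and 7.24 in old sedentary muscle (-3.02 ± 0.55, adjusted p = 0.00315). Col1a1, of the main fibrils, was 0.91, 2.36, 2.79 and 3.52 in old MICT against 4.03, 4.68, 4.71 and 6.82 in old sedentary muscle (-2.66 ± 0.57, adjusted p = 0.00511). Every old MICT array was below every old sedentary array for both, old MICT 1 was the lowest and old sedentary 4 the highest. Their means in adult sedentary muscle were 5.19 for Col3a1 and 4.72 for Col1a1, within the old sedentary range. Without old sedentary 1 and 2, Col3a1 was lower by -3.74 (adjusted p = 0.0152) and Col1a1 by -3.37 (adjusted p = 0.0215), and 7 collagen genes were called.

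Other matrix genes followed in part. Of 24 glycoprotein and proteoglycan genes 5 fell and 1 rose, among them Postn, a matricellular protein of growing and injured tissue, at -1.23, -0.48, -0.20 and -0.99 in old MICT against 1.62, 1.90, 1.80 and 3.93 in old sedentary muscle (-3.04 ± 0.77, adjusted p = 0.00943). Fn1, fibronectin, fell by 1.21 ± 0.34 and Fbn1, fibrillin, by 1.58 ± 0.35. Of 31 matrix enzymes and their inhibitors 6 fell and none rose (1 fell without old MICT 1 or without old sedentary 4), including Loxl2, which crosslinks collagen (-1.21 ± 0.35), and Serpinh1, the chaperone of procollagen (-1.16 ± 0.36). Of 10 fibroblast markers 6 fell and 1 rose, and 1 fell without old MICT 1. Dcn, the abundant proteoglycan decorin, was 9.13, 8.83, 8.77 and 8.83 in old MICT against 8.50, 8.59, 8.45 and 8.28 in old sedentary muscle and rose by 0.44 ± 0.13 (adjusted p = 0.0195). The summed signal of the 10 markers was 790 to 961 in old MICT and 724 to 835 in old sedentary muscle. Markers of bone and smooth muscle were also examined. Among old sedentary arrays both sums were highest on array 1 (72.3 and 153), where Col3a1 and Col1a1 were lowest. On old sedentary 4, where these collagen genes were highest, the sums were 59.7 and 77.3. The summed signal of 7 bone markers was 8.76 to 17.8 in old MICT against 21.9 to 72.3 in old sedentary muscle, without overlap. Acp5, an enzyme of osteoclasts, was the only 1 of the 7 called and made up much of this sum. It fell by 2.3 (adjusted p = 0.0108). All 7 differences were negative, but only 4 of the 7 were above background on old sedentary 1 and 3. The summed signal of 7 smooth muscle markers was 56.8 to 77.4 in old MICT and 77.3 to 153 in old sedentary muscle, and 3 of the 7 fell. The part of these tissues in the falls was not tested.

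Genes of lipid synthesis were lower. Of 29 genes 12 fell and 3 rose (median -0.68). Sqle, an enzyme of sterol synthesis, was -2.04, -1.72, -0.47 and -0.08 in old MICT against 0.97, 2.35, 0.67 and 1.16 in old sedentary muscle (-2.37 ± 0.55, adjusted p = 0.0068). Srebf2, the transcription factor of sterol synthesis, fell by 0.95 ± 0.23 and Scd2, a fatty acid desaturase, by 1.04 ± 0.26. Acacb, whose product malonyl-CoA restrains CPT1 in muscle, rose by 0.96 ± 0.20 (adjusted p = 0.00422). It was 7.36, 7.28, 6.74 and 6.42 in old MICT against 5.94, 5.80, 6.32 and 5.88 in old sedentary muscle, with no overlap. Of 9 adipocyte markers, Plin4 rose and Adrb3 fell, with 1 of the 2 tested probes of Adrb3 called. The differences of 8 of the 9 were negative, with a median of -1.10. The list's summed signal, to which Plin4 adds, was 530 to 1193 in old MICT and 651 to 1265 in old sedentary muscle. No gene of lipid synthesis was called without old sedentary 1 and 2.

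Of 26 vascular genes 3 rose and 2 fell, shares below the 21.3% and 9.03% of all features. Flt1, a VEGF receptor, rose by 0.72 ± 0.24 (adjusted p = 0.0302), Adm, the vasodilator adrenomedullin, by 1.26 ± 0.35, and Aplnr, the apelin receptor, fell by 1.13 ± 0.34. Vegfa was 3.20, 3.23, 4.96 and 4.57 in old MICT against 3.90, 4.16, 4.55 and 4.40 in old sedentary muscle (-0.26 ± 0.28, adjusted p = 0.475). Old MICT 1 and 2 held its lowest values and old MICT 3 and 4 its highest. Of 8 endothelial markers 1 rose and none fell, shares also below those of all features.

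Old HIIT was the other old group on the slide of old MICT. No feature was called between old MICT and old HIIT (0% of 23715, limma, smallest adjusted p 0.0535), with 3982 at an unadjusted p under 0.05. Between 0 and 2 were called when other settings were used or an array was left out. Pdk4 averaged 7.82 ± 1.65 (SD) in old MICT and 6.77 ± 1.85 (SD) in old HIIT, a difference of 1.06 ± 0.76 (n = 4 each, limma adjusted p = 0.486). Fbxo32 differed by 1.15 (adjusted p = 0.354), Trim63 by 1.18 (adjusted p = 0.355), Ddit4 by 2.04 (adjusted p = 0.222) and Cebpd by 1.67 (adjusted p = 0.271). Without old MICT 1 and 2 these 5 differences were -0.35, -0.04, -0.23, -0.07 and -0.20 in the same order. Col3a1 differed by -1.97 and Col1a1 by -1.86 (adjusted p = 0.22 for both). A p over the threshold does not show that the regimens acted alike. Old MICT 1 also correlated with old HIIT 1 at r = 0.48 over the centred features, and with old MICT 3 and 4 at 0.15 and 0.20.

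The difference between the MICT response of old and of adult mice was tested directly, with 165 features called (0.696%), 142 of them higher (0.599%), and only 55 of the 165 carrying a symbol. Of the genes named here, 4 were among them. Gzmb differed by -3.40 in old mice and the difference of responses was -3.62 (n = 4, 4, 3 and 4, limma adjusted p = 0.0314). That of Nsg2, a gene of neuronal vesicles that no list held and that was among the largest falls, was -4.14 (adjusted p = 0.0466). On old sedentary 1 to 4 Nsg2 was 0.26, -0.59, -2.36 and -3.15, so that it was highest on the 2 arrays with high lymphocyte transcripts. It was above background on 0 old MICT arrays, where it was at least 12.6-fold lower than in old sedentary muscle. Its means were as low in adult MICT (-5.23) and adult sedentary muscle (-5.08), so a fall in adults could hardly be measured. The difference of responses was -2.49 for Phgdh (adjusted p = 0.0409) and 1.06 for Slc25a33 (adjusted p = 0.0431). For Pdk4 the difference of responses was 2.93 (adjusted p = 0.134) and for Fbxo32 2.55 (adjusted p = 0.122). The list medians of adult MICT against adult sedentary muscle were 0.09 for ubiquitin ligases and FOXO factors, 0.01 for fatty acid oxidation and -0.02 for collagen chains, but adult MICT had 3 arrays and the 4 groups lay on 3 slides. Without old MICT 1 and 2 no feature was called in this contrast, and with the covariates none was.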

How the data were processed

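RNA of gastrocnemius was measured on 1-colour Agilent arrays. Agilent Feature Extraction 12.0.3.1 made the deposited intensity values, background subtracted and detrended within each array, per the file headers. No scaling between arrays was applied to them. The deposited value table of the series, a score of unstated scale and centring that ran the same way as the log10 signal on each array, with medians of -0.3 to -0.2 over these arrays, served only as an alternative.

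Each array held 62976 spots, of which 3671 controls were left out. Spots marked as outliers were dropped, spots of a probe were averaged as log2 intensity of the deposited signal, and each array's 75th percentile was subtracted. The share of gene spots well above background was 47.2% to 54.5% over these 8 arrays. The number of arrays limits the precision. Probes well above background on at least 3 arrays were tested, 31950 in all. Symbols came by accession from a RefSeq table of GRCm38.p6 (28123 of 29574 RefSeq probes matched), and the probe with the highest mean signal stood for a symbol, which gave 23715 features. Coordinates in the array annotation (mm9) were not used.

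Limma 3.58.1 in R 4.3.3 (with data.table, version 1.17.8) fitted 6 group means to all 23 arrays, with a trend of variance on intensity, and its 2-sided p-values were adjusted by Benjamini-Hochberg. The fit was tested on simulated data with independent noise and the same spread in every group. Such data cannot show how shifts shared by arrays, or unequal spreads between groups, affect the calls. Lists are described by counts and medians only. The named genes were the 15 largest rises and falls with groups that did not overlap, the 4 called members with the smallest p of each list, and a fixed set of muscle genes. Other members carry list values only. The members and lists were chosen with earlier results of these data known. An array's score is the median of a list's deviations from the old sedentary mean. Alternatives were normexp, quantile and median scaling, other detection filters, other variance settings, weights per array, a replicate block, slide, covariates, the compared arrays alone and arrays left out. Leaving out old MICT 1 and 2 was chosen after seeing the data.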

Additional observations from a re-analysis of the deposited data

Results flagged for a closer look

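Among 406 groups of 4 gene values and 102 groups of 4 list scores, 16 and 3 had an array far from the others by Dixon's criterion, which chance alone meets in about 1 in 20 groups. Old MICT 1 was highest for Dcn (9.13) and Glycam1 (-4.63) and lowest for Hk2 (4.78), and old MICT 4 was highest for Spib (-4.63). Old sedentary 3 was highest for Acadsb (3.02), Mlycd (5.81), Mylpf (3.94), Sqstm1 (3.39), Trdn (0.73) and Uqcrfs1 (7.50). Old sedentary 4 was highest for Birc5 (3.03), Cdkn1a (3.33), Fn1 (6.14), Plk1 (1.62) and Postn (3.93) and lowest for Fbxo21 (2.11). Of the list scores, old MICT 2 was highest for keratinocyte markers (-1.18), old MICT 4 lowest for matrix enzymes (-0.37) and old sedentary 4 highest for neutrophil markers (3.37).

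The MICT response differed between old and adult mice by the test of the difference itself for 165 features, among them Gzmb (-3.62), Nsg2 (-4.14), Phgdh (-2.49) and Slc25a33 (1.06) on the log2 scale. Gzmb and Nsg2 were above background on 0 old MICT arrays. The slides differ between these groups, and the part of slide was not tested.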

How the results depend on the processing

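The 7200 calls of old MICT against old sedentary muscle became 4032 with normexp, 4109 in the deposited table, 4793 with a fold of at least 1.5, 403 without old sedentary 1 and 2, 64 without old MICT 1 and 2, 35 with the covariates, and 0 both with the 8 arrays alone and in the additive slide model. Leaving out 1 array gave 3690 (without old sedentary 2) to 8740 (without old sedentary 3), with 4333 without old sedentary 1, 4124 without old MICT 1 and 4213 without old MICT 2. Higher calls were 70.3% as reported but 3036 against 2390 lower with quantile normalization and 2263 against 1846 in the deposited table. The replicate block gave 7286 calls, although same-numbered arrays did not deviate together (r of -0.00871, 0.163, -0.173 and 0.0163), so the numbers do not pair them. Against old HIIT the count was 1 with quantile normalization, the deposited table, the stricter detection filter or the covariates, and 0 to 2 with 1 array left out. The 165 calls of the age difference became 0 with normexp, the covariates or without old MICT 1 and 2, 1 with only the compared groups, 22 without old sedentary 1 and 2, 61 without a filter, 250 with quantile normalization, 283 without the trend and 2433 with array weights, and 14 to 1933 with 1 array left out. The causes were not tested.

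Signs turned in these cases. The additive slide model gave Rpl7a -0.0227, Actn3 -0.0599, Pygm -0.00402, Gzmb 0.0248, Myh2 -0.0206, Myh1 -0.00720, Vegfa 0.11 and Asns 0.22. The covariates gave Ccl19 0.46, Ppargc1a -0.0491, Myh2 -0.43, Myh1 -0.51, Myh4 -0.50, Hk2 -0.18, Per2 -0.61 and Asns 0.31. Array weights gave Vegfa 0.0561, Fst -0.0119 and Chrna1 0.22. For Ppargc1a and Hk2 the deposited table gave -0.05 each, median scaling -0.0243 and -0.0101, and quantile normalization -0.17 and -0.24, with Rpl26 at -0.11 and Myh4 at -0.0788, while normexp gave Ppargc1a -0.000578. Without old MICT 1 and 2, Vegfa was 0.51, Igf1 -0.45, Fst -0.36, Dbp 0.40, Cdkn1a -0.11 and Foxo3 -0.13, and against old HIIT Pdk4 was -0.35, Fbxo32 -0.0409, Trim63 -0.23, Ddit4 -0.0737 and Cebpd -0.20. Without old sedentary 1 and 2, Ppargc1a was -0.14, Myh2 -0.41, Myh1 -0.37, Myh4 -0.0221 and Hk2 -0.12. Without old sedentary 4, with or without old HIIT 1, Ppargc1a was -0.00133, Myog 0.12 and Chrna1 0.38. With 1 array left out, Ppargc1a ranged between -0.16 and 0.18, Hk2 between -0.11 and 0.37, Myh2 between -0.0839 and 0.64, Myh1 between -0.0352 and 0.62, Myog between -1.67 and 0.12 and Chrna1 between -0.76 and 0.38. Genes not well above background in a group have only a bound there.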
